A study of Crocodylus porosus with 60 samples.

Results

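Among the miRNAs measured in the saltwater crocodile (Crocodylus porosus), 34 rows carried no family name and had their highest mean level in brain. They were chosen from the 509 rows of the deposited table that are named miR-N with a number, out of 654 rows in all. The unit was judged from the values to be RPM, reads scaled to a library total that is not stated. A row was taken when it had at least 5 RPM in both brain libraries. Its brain mean also had to be at least 2 times the mean of every other tissue. In all, 35 rows met these thresholds, and miR-N22 was left out by the rule. The choice rests on the brain levels themselves, so every contrast of brain with other tissues is given as a description and was not tested.

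Small RNA was sequenced from tissues of hatchlings that were raised under the same conditions and given no treatment. Runts were 359 days old and 386.2 ± 23.6 mm (SD) in size, and normal hatchlings were 373 days old and 740.2 ± 73.5 mm. The table has 15 libraries of 10 tissues for 60 samples, with 4 samples to a library name, so that a value may stand for a pool. Of these libraries 4 are from testis (2 of runts, 2 of normal hatchlings), 2 from heart and 2 from brain (1 of each size class). Spleen, liver, stomach, small intestine, cloaca, tongue and jaw skin have a single library whose size class the headers do not give. The testis libraries of each class are called a and b here, in table order. No strain, genotype or sex is stated for any group. The cloaca values come from a column headed cloacal gland. Nothing says that libraries came from separate animals except where the size classes differ, so a p-value here measures only the spread between libraries, which may in part be technical.

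MicroRNAs are short RNAs cut by Drosha and Dicer from hairpin precursors. Loaded into an Argonaute protein, they pair through a short seed near their 5′ end with messenger RNAs and lower their output. Vertebrate brain is known for miRNAs that are scarce elsewhere, such as miR-124, which represses transcripts of other cell types in neurons, and miR-9 of neural progenitors and neurons. The N-numbered rows have no such background: the table gives no sequence, seed, position or gene for them, and whether each is a true miRNA was not checked here.

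Depth was estimated from the step between low values. It was lowest in jaw skin (537000 reads) and highest in the normal hatchling's brain (4780000 reads), and the runt's brain had 2100000. At 3 reads, the floor used here for a value of 0, this corresponds to 0.627 RPM in the normal brain library and 5.59 RPM in jaw skin. A low row can thus be missed in jaw skin, liver or tongue at a level that would be seen in brain. Intervals and floors cover counting error only. Counting intervals of ratios pool the reads of a tissue over libraries of unequal depth, so they are approximate and can be too narrow. In such bulk tissue, fewer cells of a type and less RNA per cell cannot be told apart.

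The brain label was checked against known miRNAs. The neuron and brain list had rows for all 10 of its markers. They summed to 72990 RPM in the brain library of the runt and 61390 RPM in that of the normal hatchling. The highest mean of any other tissue was 3960 RPM (testis), where the highest single library, testis runt b, had 9079 RPM. The oligodendrocyte list (miR-219 and miR-338, of myelin-forming cells) summed to 625 and 351.9 RPM, and to 84.8 RPM at most elsewhere (tongue). Some defining miRNAs of other organs were low in both brain libraries, with 1.9 and 2.31 RPM of liver miR-122-5p, 4.27 and 2.73 RPM of heart miR-499-3p, and 0 and 5.68 RPM of intestinal miR-215-5p. The striated muscle list as a whole summed to 173.4 and 181.2 RPM in brain, against a mean of 63270 RPM in heart. The smooth muscle and mesenchyme list summed to 2854 and 3626 RPM, against 110500 RPM in stomach. Among 144 family-named rows, 20 (13.9%) met the same brain thresholds, and among the N-numbered rows 6.88% did. The 5 RPM minimum weighs on these shares. Only 104 of the 509 N-numbered rows reached it in both brain libraries, of 220 rows of any name that did. Nothing is therefore read from the difference between the shares. The 20 family-named rows included miR-124-5p, miR-9-5p, miR-138-5p, miR-132, miR-129-5p and miR-128-1-5p. Another of them, miR-9-5p (b), had the same ratio of brain to the next tissue (79.8) and of runt to normal brain (0.37) as miR-9-5p. In the lists, miR-153-3p and miR-153-1-5p had equal levels, and miR-133c-5p kept a constant ratio to miR-133-5p. Such rows may share reads, so counts and sums of family-named rows may count some reads more than once.

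The 34 rows were minor components of the brain libraries. Together they summed to 3938 RPM in the brain library of the runt, 0.603% of the listed reads, and to 848.1 RPM in that of the normal hatchling, 0.137%. In the other 13 libraries their sum lay between 38.4 RPM (testis normal b) and 293.6 RPM (testis runt b). By tissue it was 2393 ± 2185 RPM in brain (SD, n = 2), then 149.1 RPM in stomach, 148.1 RPM in tongue, 144.2 ± 112.5 RPM in testis (n = 4) and 141.7 ± 23.9 RPM in heart (n = 2). Cloaca (100.4 RPM), small intestine (90.3 RPM), jaw skin (70.4 RPM), liver (70.2 RPM) and spleen (58.4 RPM) followed. All tissues outside brain lay within the range of the testis libraries (38.4 to 293.6 RPM). A single row, miR-N312, made up 45.6% of the sum in the runt brain library and 27.8% in the normal one.

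**Figure D1:**
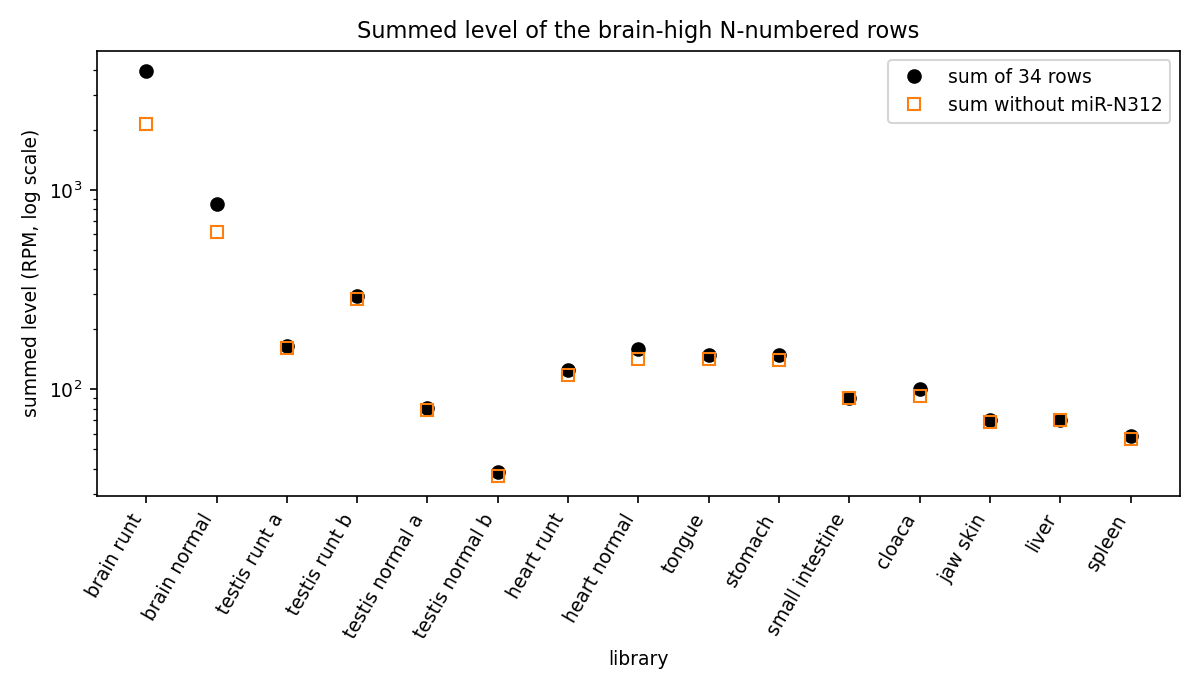
Summed level of the 34 rows in each library (RPM, log scale), with all rows (black circles) and without miR-N312 (open orange squares). The brain libraries stand at 3938 and 848.1 RPM and the highest other library, testis runt b, at 293.6 RPM.

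Single rows spanned a wide range of levels. The brain mean was at least 100 RPM in 6 rows, 10 to 100 RPM in 21 and under 10 RPM in 7, with a median of 19.1 RPM. In 26 rows each brain library lay above each of the 13 other libraries. In the other 8, which were miR-N36, miR-N311, miR-N299, miR-N494, miR-N267, miR-N307, miR-N356 and miR-N82, the normal brain library overlapped libraries of other tissues. The choice by brain levels favours such a separation. Its share over all rows was not counted, so nothing is read from the 26. The tissue with the next highest mean was testis in 10 rows, tongue in 10, spleen in 4, and stomach, heart, small intestine and liver in 2 each. It was cloaca in 1, and in miR-N60 there was none.

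**Figure D2:**
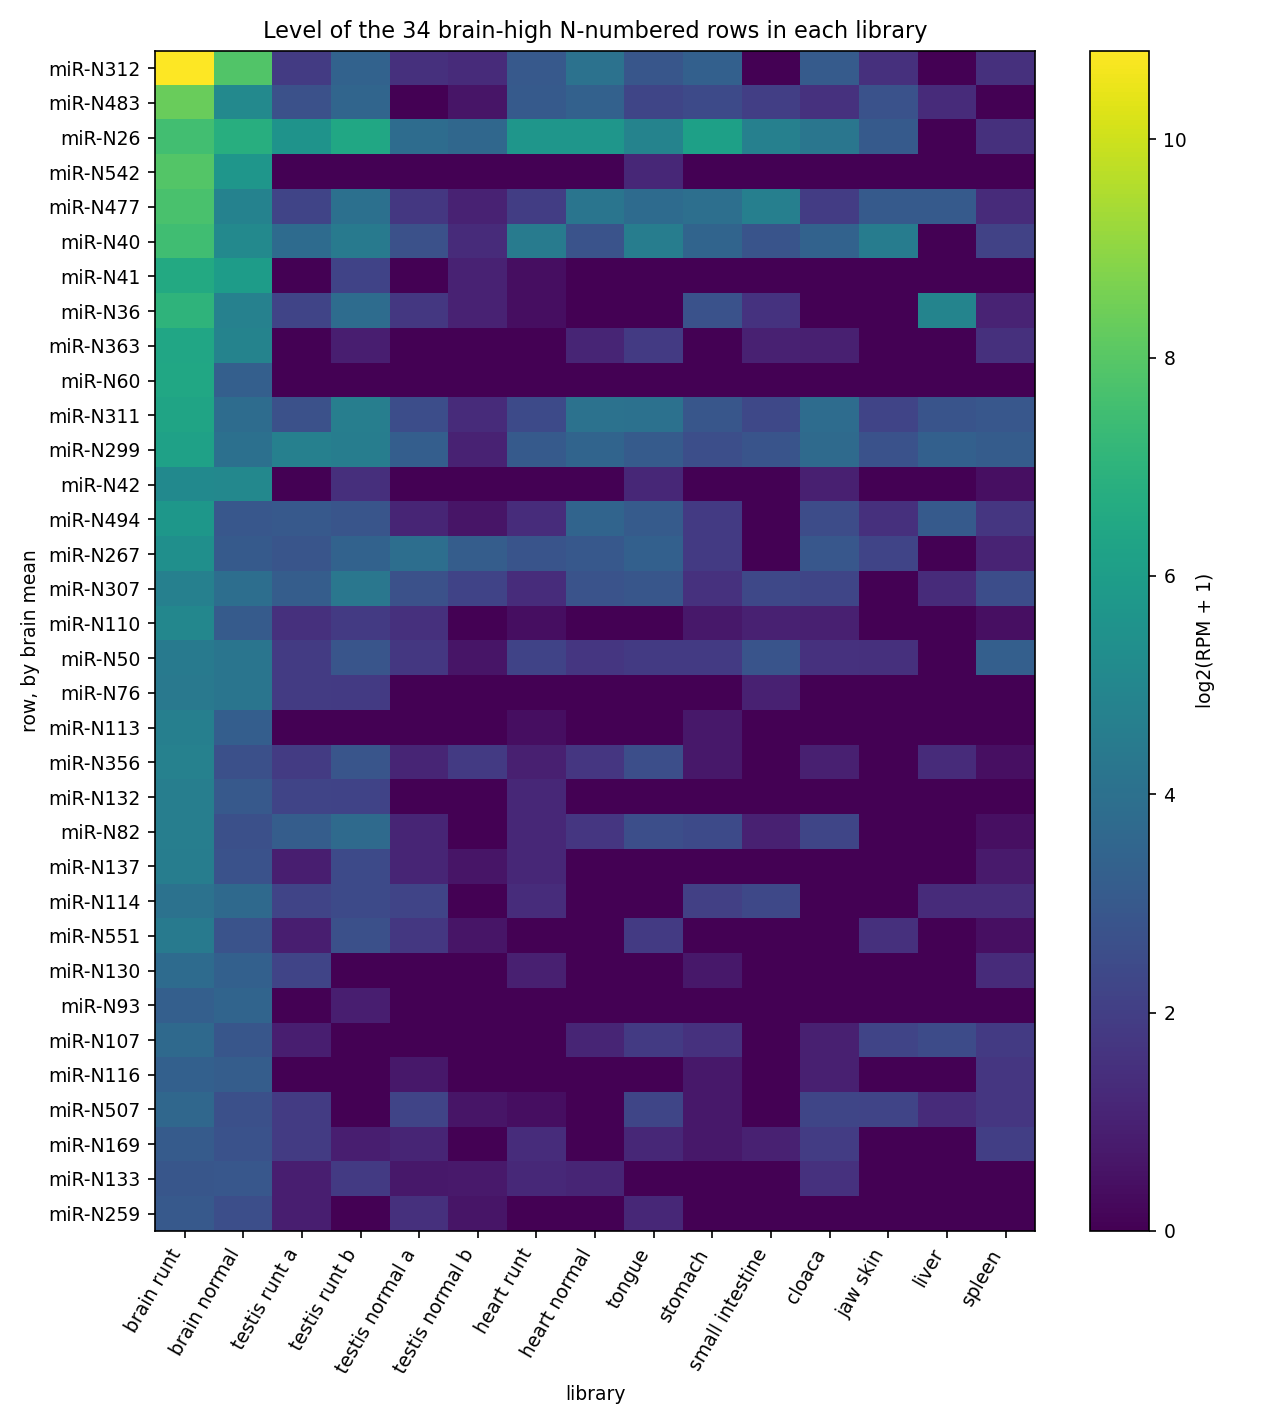
Level of each of the 34 rows (lines, ordered by brain mean) in each of the 15 libraries (columns), as log2(RPM + 1). The 2 brain columns at the left are brightest, the runt column more so than the normal one for most rows, and rows such as miR-N60 and miR-N542 are dark in nearly all other libraries.

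The most abundant row, miR-N312, had 1795 RPM in the brain library of the runt (exact Poisson 95% interval 1740 to 1850) and 236 RPM in that of the normal hatchling (222 to 250). Its levels in testis were 1.8 and 1.53 RPM in normal hatchlings and 2.69 and 9.61 RPM in runts, those in heart 16.1 and 7.0 RPM, and those in the 7 single-library tissues between 0 and 8.84 RPM. Both brain libraries were far above all others, and heart came next, with a brain mean 88.0 times that of heart (approximate counting interval 63.4 to 126).

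miR-N542 had 243 RPM in the runt and 50.7 RPM in the normal brain library. Of the other 13 libraries 12 were at 0, and tongue had 1.27 RPM, which is 1 read. The ratio of brain to tongue, 116, therefore has a counting interval of 20.7 to 4580. miR-N60 went further, with 86.3 and 8.62 RPM in the runt and normal brain libraries and 0 in all 13 others. Its brain mean of 47.5 RPM was at least 8.5-fold higher than the largest floor of any library, that of jaw skin. That mean rests mostly on the runt library, and the normal brain level was much closer to this floor (5.59 RPM).

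Together with these, miR-N42, miR-N110, miR-N76, miR-N113, miR-N93 and miR-N259 made 8 rows that had no more than 3 reads in any library outside brain. miR-N42 (34.1 and 32.4 RPM in the runt and normal brain libraries), miR-N76 (19.9 and 17.7 RPM) and miR-N93 (8.54 and 10.3 RPM) had nearly equal levels in both brain libraries. miR-N110 (31.3 and 7.57 RPM) and miR-N113 (24.7 and 8.41 RPM) did not. The brain means of all 8 ran from 6.08 RPM for miR-N259 to 147.0 RPM for miR-N542. All were above the 5.59 RPM floor of the shallowest library. In the normal brain library, though, miR-N259 had 5.05 RPM, under that floor, and miR-N110 and miR-N113 were not far above it. Lower levels in other tissues were not detectable at this depth. miR-N41 was close to this group, with 94.8 and 61.6 RPM in brain, 3.5 and 1.02 RPM in a runt and a normal testis library, 0.32 RPM in the runt heart library and 0 in the other 10 libraries. miR-N363 (83.9 and 27.3 RPM in brain) stayed at or under 2.53 RPM elsewhere.

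At the other end stood rows that were present in most tissues. miR-N26 had 186 and 108 RPM in the runt and normal brain libraries, 45.7 and 86.5 RPM in runt testis, 13.2 and 11.2 RPM in normal testis, 49.7 and 50.6 RPM in runt and normal heart, 70.7 RPM in stomach and 0 in liver. Both brain libraries exceeded all others, but its brain mean was only 2.08 times that of stomach (counting interval 1.7 to 2.55). miR-N477 had 207 and 26.7 RPM in brain and reached 24.4 RPM in small intestine, with no library at 0. miR-N40, at 177 and 33.4 RPM in brain, reached 22.8 RPM in tongue and 22.2 RPM in jaw skin. miR-N36, at 129 and 25.7 RPM in brain, had 28.4 RPM in liver, which exceeded the normal brain library. miR-N483 (327 and 33.4 RPM in brain) was at most 10.49 RPM in every other library.

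The remaining rows had brain means from 6.49 to 46.4 RPM, and most were low but present in several tissues. miR-N311 (79.7 RPM in the runt and 13.0 RPM in the normal brain library) and miR-N299 (72.6 and 14.7 RPM) had reads in every library, with up to 23.6 RPM of miR-N311 and 25.1 RPM of miR-N299 in runt testis, above the normal brain library. miR-N311 also exceeded its normal brain level in normal heart (16.1 RPM), tongue (15.2 RPM) and cloaca (13.3 RPM). miR-N494 (51.2 and 6.73 RPM in brain) did so in normal heart (10.3 RPM), tongue (7.59 RPM), liver (7.47 RPM) and testis runt a (7.17 RPM). miR-N267 (41.3 and 7.36 RPM) did so in testis normal a (13.8 RPM), testis runt b (9.61 RPM), tongue (8.86 RPM) and testis normal b (8.15 RPM). For miR-N307 (25.1 and 14.1 RPM), miR-N356 (26.1 and 5.26 RPM) and miR-N82 (23.7 and 5.26 RPM) the library above was testis runt b, with 18.4, 6.12 and 12.2 RPM. miR-N82 was also higher in testis runt a (8.07 RPM).

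Of the others, miR-N50 (20.4 and 17.2 RPM in the runt and normal brain libraries) reached 8.56 RPM in spleen and was at 0 only in liver. miR-N132 (23.7 and 7.15 RPM) was seen outside brain in 3 libraries, both of runt testis (3.59 and 3.5 RPM) and that of runt heart (1.27 RPM). miR-N137 (22.8 and 5.68 RPM), miR-N551 (20.9 and 5.89 RPM) and miR-N114 (15.7 and 11.8 RPM) had their highest other level in testis runt b, at 4.37, 5.24 and 4.37 RPM. Spleen was the next tissue for miR-N130 (12.8 and 9.04 RPM in brain), miR-N116 (9.01 and 8.2 RPM) and miR-N169 (7.59 and 5.68 RPM), as for miR-N50. In each of these 8 rows both brain libraries stood above every other library.

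The ratio of brain to the next tissue was at least 10 in 10 rows and could not be formed for miR-N60. Of these 11 rows, 6 had no more than 3 reads in the next tissue. Another 14 rows had a ratio of 3 to 10, and 9 a ratio of 2 to 3. The 3 rows just inside this threshold were miR-N107 (2.05), miR-N26 (2.08) and miR-N507 (2.19), and the nearest N-numbered rows outside it were miR-N86 (1.9), miR-N298 (1.55) and miR-N27 (1.51). For miR-N107, miR-N507, miR-N133 and miR-N259 the counting interval of the ratio reached below 1 (0.667, 0.707, 0.897 and 0.81), so for these rows counting error alone spans a ratio of 1. The brain levels of these rows were low, with 11.9 and 6.52 RPM of miR-N107, 11.4 and 5.26 RPM of miR-N507, 6.32 and 6.66 RPM of miR-N133, and 7.11 and 5.05 RPM of miR-N259 in the runt and normal libraries. In 1 row, miR-N133, low values were not whole numbers of reads, so its level is uncertain. For members with at least 5 RPM in 3 or more libraries, no row of the table kept a constant ratio to them. Members that reached this level in brain alone, miR-N133 among them, could not be checked in this way.

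The rows that varied most like the 4 most abundant members were found by Pearson's r of log2(mean RPM + 1) over the 10 tissues. This is a description, since all rows share libraries and depth. The closest to miR-N312 were miR-456-5p (r = 0.925; 1742 and 322 RPM in the runt and normal brain libraries) and miR-N214 (0.915), a row with 10.9 and 0.63 RPM in brain. miR-N483 was closest to miR-N214 (0.923) and to miR-132 (0.907), a miRNA induced by neuronal activity in mammals, with 11803 and 1713 RPM in the runt and normal brain libraries. miR-N542 was closest to miR-N60 (0.986) and miR-N431 (0.986), both at 0 in all 13 other libraries. Rows near 0 everywhere outside brain have an r near 1 with each other by construction, so nothing is read from these values. For miR-N26 no row was as close, with 0.837 for miR-455-5p and for miR-N82.

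Levels in the runt brain library were above those in the normal one for 32 of the 34 rows, the exceptions being miR-N93 and miR-N133. The median ratio was 3.19 and the highest 10.0, and 20 rows were at least 2 times higher in the runt. Of all 220 rows with at least 5 RPM in both brain libraries, 36.4% were at least 2 times higher in the runt and 68.2% were higher at all, with a median ratio of 1.53. Among the 70 other N-numbered rows of this kind 51.4% passed 2 times, with a median ratio of 2.07. Since brain levels chose the 34 rows and each size class has 1 brain library, none of this was tested. The largest ratios were those of miR-N60 (10.0), miR-N483 (9.77), miR-N477 (7.74), miR-N312 (7.62) and miR-N494 (7.61).

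**Figure D3:**
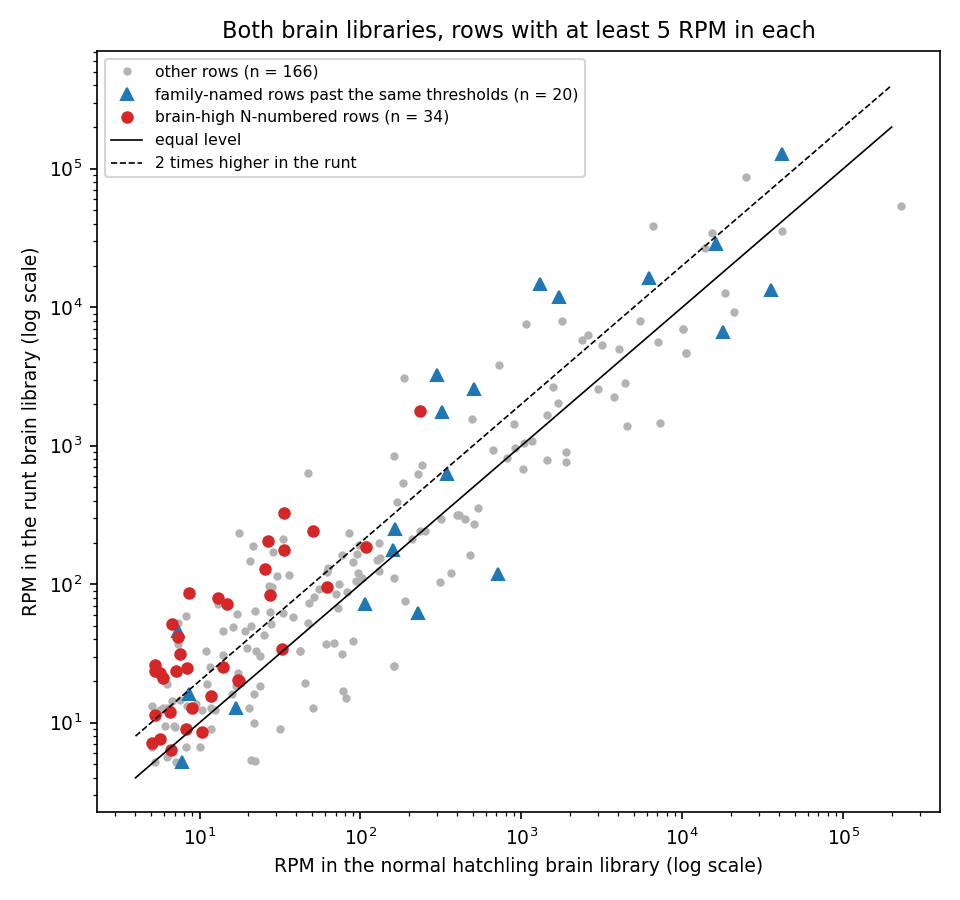
RPM in the brain library of the normal hatchling (horizontal) and of the runt (vertical), both on log scales, for the 220 rows with at least 5 RPM in each. The 34 N-numbered rows (red circles) lie mostly above the line of equal level, with 20 at or above the dashed line of 2 times; 20 family-named rows past the same thresholds (blue triangles) lie on both sides, and other rows are grey.

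The size of this offset depended on scaling. With scaling factors from a trimmed mean of log ratios, which were 1.53 for the runt and 0.817 for the normal brain library, the median ratio of all 220 rows became 0.816 and that of the 34 rows 1.7. Then 20 of the 34 rows were higher in the runt, 15 of them at least 2 times, against 39.1% and 17.7% of all 220, and 1 was at least 2 times lower. The sums were then 2567 and 1038 RPM.

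Marker lists differed between these brain libraries as well. Endocrine and pituitary rows summed to 5859 RPM in the runt and 2439 RPM in the normal library. Nearly all of this was miR-7 (5822 and 2378 RPM), while miR-375 went the other way (37.0 and 61.4 RPM). Ciliated cell rows (miR-34b and miR-449) summed to 1143 and 458.4 RPM, and neuron and brain rows to 72990 and 61390 RPM. Endothelial miR-126-5p had 759 and 1892 RPM. The 4 blood cell rows summed to 846.9 and 923.4 RPM, mostly miR-150 (815 and 819 RPM), while miR-144-5p, miR-223 and miR-155-5p had runt-to-normal ratios of 0.456, 0.286 and 0.252. The 3 smooth muscle and mesenchyme rows summed to 2854 and 3626 RPM. Of the 10 neuron and brain rows with at least 5 RPM in both, 7 were higher in the runt, 4 of them at least 2 times, among them miR-132 (11803 and 1713 RPM) and miR-138-5p (2567 and 509 RPM). miR-9-5p (13244 and 35790 RPM), miR-218-5p (119 and 715 RPM) and miR-124-5p (71.6 and 107 RPM) went the other way. The part of these differences in the levels of the 34 rows was not tested.

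The runt library also weighed on the choice of rows. In the normal brain library alone, 20 of the 34 rows were at least 2 times above the mean of every other tissue, among them miR-N312 (20.4 times that of heart), miR-N41 (54.5 times that of testis) and miR-N363 (10.8 times that of tongue). The other 14 were not, and miR-N36, miR-N311, miR-N494, miR-N267 and miR-N82 lay below the next tissue there. miR-N477 reached 1.1 times, miR-N40 1.47 times and miR-N26 1.53 times.

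Differences outside brain were looked at in testis against heart. The choice of rows did not compare these organs, but it held the mean of each to at most 0.5 of the brain mean. Of the 319 rows of the table with at least 10 RPM in 2 of the 15 libraries, 111 differed (34.8%), 79 higher in testis (24.8%) and 32 lower (10.0%), by limma's moderated test with Benjamini-Hochberg adjustment at 0.05. Of the 34 brain-high rows 19 met that minimum, most of them through brain, and 1 passed, so nothing is read from this count beside 34.8%. In a fit on testis and heart libraries alone, 5 of the 34 could be tested, which were miR-N26, miR-N477, miR-N40, miR-N311 and miR-N299. None of these 5 passed or had an unadjusted p under 0.05 by limma, against 107 of 259 rows (41.3%) that passed, and their log2 folds ran from -0.92 to -0.03.

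The row that passed in the fit over all tissues was miR-N36. It had 2.41 and 1.02 RPM in normal testis, 3.59 and 13.1 RPM in runt testis, and 0 and 0.32 RPM in normal and runt heart. All 4 testis values were above both heart values. The floor of the normal heart library was 3.47 RPM, though, above both normal testis levels, so their order is not settled. The log2 fold was 2.03 (SE 0.63, limma adjusted p = 0.02849). Heart had 1 read in all, so this fold depends on the pseudocount, and it was 2.69 with a pseudocount of 0.5 and 0.80 with one of 5. miR-N36 met the minimum level only with brain or liver counted, so that it could not be tested on testis and heart libraries alone. The brain libraries that chose it also enter the estimate of spread, so nothing is read from its call. The call was lost in 5 of the 10 other settings that could test it, among them those without the heart library of the normal hatchling (adjusted p = 0.1659) or of the runt (0.07943), with a pseudocount of 5 (0.2194), without a filter (0.05605) and without scaling (0.08512).

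In testis miR-N312 averaged 3.91 ± 3.83 RPM (SD, n = 4), against 11.5 ± 6.43 RPM in heart (SD, n = 2). miR-N483 likewise had 4.1 ± 4.91 RPM in testis and 8.26 ± 1.32 RPM in heart. miR-N307 had 8.85 ± 6.6 RPM in testis and 3.67 ± 2.94 RPM in heart. Each of these rows met the minimum level only with brain counted, so their levels are given as values and no test is read. With no filter, when all 34 rows enter the fit, 0 passed by limma, against 22.4% of 653 rows (16.1% higher and 6.28% lower in testis), and 3 of the 34 had an unadjusted p under 0.05. The choice of rows capped their means in both tissues, and many were near 0 in both. The brain libraries that chose the rows also enter the estimate of spread, so nothing is read from this 0. The median log2 fold of the 34 was then 0.20 and that of all 653 rows 0.27.

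Transcript differences that go with the small size of runts are a stated aim of the study. Over the 8 testis, heart and brain libraries, 4 of runts and 4 of normal hatchlings, with tissue as a term, none of the 293 rows of the table that could be tested passed the threshold (0.0%) by limma, and 24 had an unadjusted p under 0.05. Of the 34 brain-high rows 19 entered and 0 passed, with 4 at an unadjusted p under 0.05. The brain values that chose the rows are part of this fit, and the runt library weighed more in the choice, so the folds of the 34 rows in it are not given. Without scaling, the median log2 fold of all 293 rows moved from 0.05 to 0.54, so a general offset towards runts depends on the scaling. Without the heart library of the runt 14 rows of the table passed. miR-N483 was among them, but the brain values that chose it are in this fit too, so nothing is read from its call.

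Size class was therefore also fitted over the 6 testis and heart libraries alone, 3 of each class, a fit added after the data were seen. Of 259 rows 0 passed by limma and 26 had an unadjusted p under 0.05, and of the 34 brain-high rows 5 could be tested, with 0 past the threshold and 1 at an unadjusted p under 0.05. That row was miR-N40, with 12.6 and 21.0 RPM in runt testis, 5.41 and 1.53 RPM in normal testis, and 21.6 and 5.75 RPM in runt and normal heart. It was higher in the runt in both tissues, and its log2 fold was 1.60 (SE 0.47, limma adjusted p = 0.2762). miR-N299, with 25.1 and 22.7 RPM in runt testis, 8.42 and 1.02 RPM in normal testis, and 7.32 and 10.3 RPM in runt and normal heart, had a log2 fold of 1.17 (SE 0.67, adjusted p = 0.6326). For miR-N26 it was 1.048 (SE 0.53, adjusted p = 0.5773), and for miR-N311 and miR-N477 it was 0.21 and 0.04.

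Most of the 34 rows were too low outside brain for that fit, and their levels are given as values. miR-N483 had 5.38 and 10.5 RPM in runt testis, 0 and 0.51 RPM in normal testis, and 7.32 and 9.19 RPM in runt and normal heart. miR-N82 had 8.07 and 12.2 RPM in runt testis and 1.2 and 0 RPM in normal testis. In both rows the runt testis libraries lay above the normal ones. miR-N267 had its highest testis level in a normal hatchling (13.8 and 8.15 RPM, against 6.27 and 9.61 RPM in runts).

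**Figure D4:**
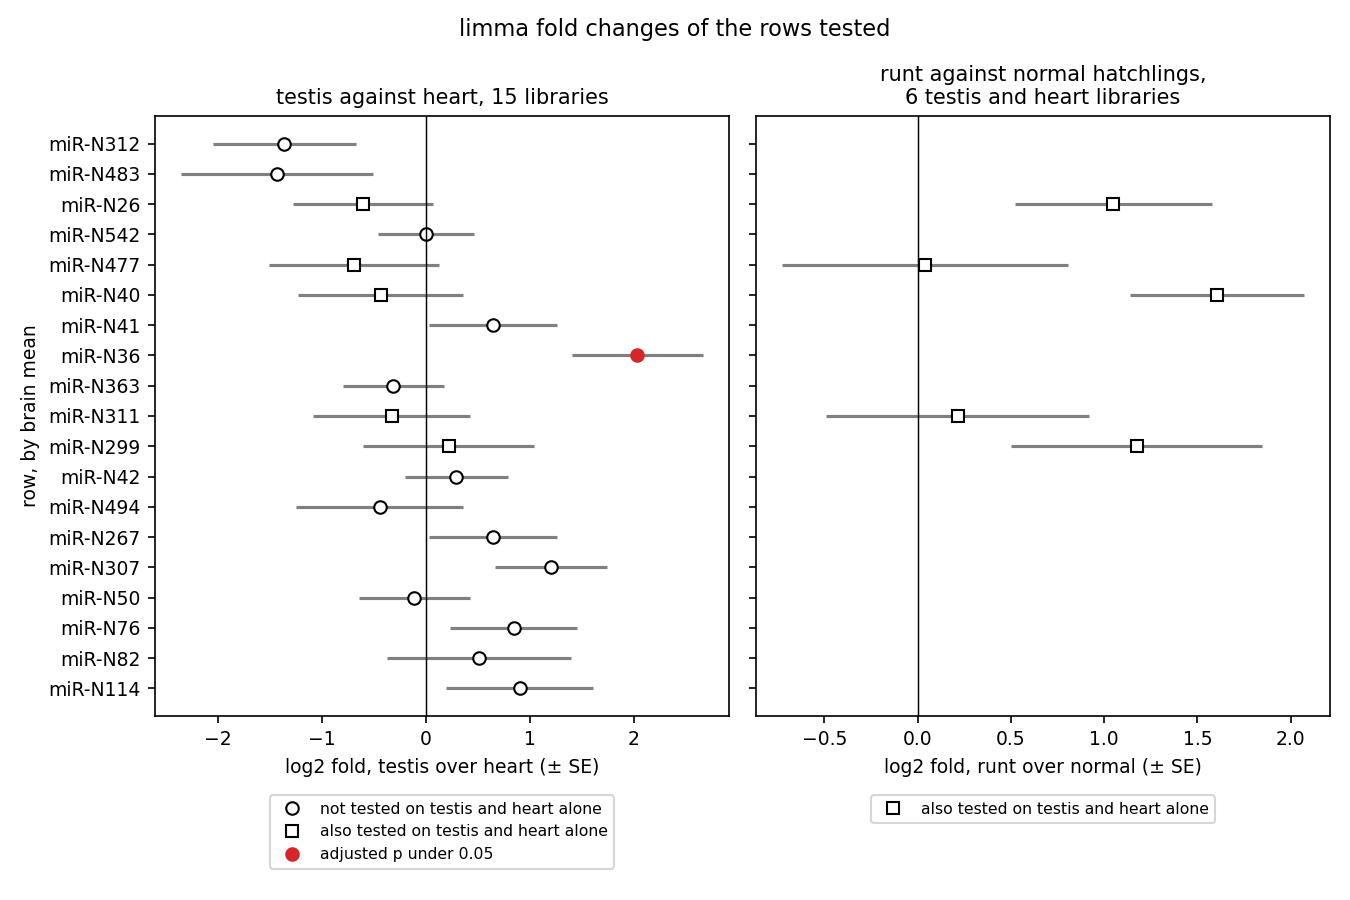
Log2 fold changes (points) with standard errors (bars), for testis over heart in the 19 brain-high rows that met the minimum over 15 libraries (left) and for runt over normal hatchlings in the 5 rows that met it over the 6 testis and heart libraries (right, squares in both panels). Most of the 19 rows met the minimum through the brain levels that chose them, so nothing is read from how many passed on the left. The red point is miR-N36 (2.03), which passed a limma adjusted p of 0.05 but lost this call in 5 of 10 other settings. Nothing is read from it, and no row on the right passed.

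In testis alone, 31 of the 34 rows had at least some reads, and in 16 of them both runt libraries lay above both normal ones, while the reverse occurred in 0. Of 615 rows of the table with reads in testis, 37.7% had both runts above and 8.29% both below. After scaling the counts were 13 and 2 of the 31, against 26.8% and 23.6% of the 615. In heart the runt library was above the normal one in 13 rows and below it in 13. The share over all rows was not counted. The depth also differed, with floors of 0.96 RPM in the runt and 3.47 RPM in the normal heart library. A low row could thus have reads in the runt heart library alone, and nothing is read from these heart counts. Some marker lists of other tissues differed in the same direction in testis, and others did not. The neuron and brain list summed to 3608 and 9079 RPM in runt testis and to 2062 and 1091 RPM in normal testis, the striated muscle list to 3520 and 717.5 against 210.3 and 87.9 RPM, and the epithelium list to 3580 and 1735 against 686.4 and 402 RPM. Endocrine and pituitary rows summed to 15170 and 18000 against 7022 and 4377 RPM. This was through miR-375 (10567 and 12144 against 234 and 128 RPM), since miR-7 overlapped (4599 and 5852 against 6788 and 4248 RPM). Liver miR-122-5p had 285.9 and 3152 against 43.3 and 66.8 RPM. Endothelial miR-126-5p went the other way (1514 and 1523 against 2343 and 2065 RPM). Blood cell, smooth muscle and mesenchyme, and gut lists overlapped between the classes. Testis runt b, with the largest neuron and brain sum, also had the largest sum of the 34 rows (293.6 RPM). That neuron and brain sum was mostly miR-129-5p (5228 RPM) and miR-128-1-5p (2532 RPM). Both were higher in the runt testis libraries, as were miR-132 and miR-218-5p. miR-9-5p overlapped between the classes (103 and 117 against 160 and 67.9 RPM), as did miR-138-5p (83.4 and 198 against 197 and 64.7 RPM). The part of the cell types of these lists in the testis levels was not tested.

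Whether the size class difference was itself unlike between testis and the mean of heart and brain was tested in a fit with an interaction, whose residual spread comes from testis alone. Of 293 rows 4 (1.37%) passed by limma, and 0 of the 19 brain-high rows that met the minimum did, with 4 at an unadjusted p under 0.05. The brain values that chose the rows enter here as well, so nothing more is read from this count.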

How the data were processed

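The deposited values are RPM per library and miRNA row, judged from the values themselves, and the total they were divided by is not stated. Per the file headers, miRDeep2 (version 2_0_0_8) and its quantifier made the table. Without saying what each was used for, the submitters' processing notes name bcl2fastq 2, Bowtie 1.2.0 and bedtools 2.26.0. Each of 15 library names has 4 samples but 1 value column. Another 1 value column, which fits no sample's labels, was left aside. No genome build is named in the labels or headers.

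Size class was read from the column headers. The worth of 1 read was taken as about the largest step of which at least 85% of low values are whole multiples within 0.1 reads (88.4% to 95.3% were), and gave depths of 537000 to 4780000 reads. Since the rest are fractions, no count model was used. Levels are RPM as deposited. Tests used limma 3.58.1 in R 4.3.3 on log2(scaled RPM + 1), which understates the change of low rows, with an intensity trend, two-sided p-values and Benjamini-Hochberg adjustment over all rows tested. Scaling was an unweighted trimmed mean of log ratios (30% of log ratios, 5% of mean levels). A row was tested if 2 or more libraries in the fit had 10 RPM or more. Testis against heart was fitted over all 15 libraries with tissue as the term. The limma fits were tested on simulated data, with the same row mean in all libraries but for the changes put in. That simulation left the scaling out, so it does not test it. The rows and lists were chosen with earlier results of these data known. All 34 rows could be named. Other rows named are markers, the 2 most alike rows of the 4 most abundant members, and rows nearest the threshold. Alternatives were the pseudocount, filter, scaling, fitted libraries and thresholds of the rule. The interaction fit, the size class fit without brain and the counts after scaling were added after the data were seen.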

Additional observations from a re-analysis of the deposited data

Results flagged for a closer look

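In testis, the group of 4 libraries, 8 of 32 quantities looked at (31 rows and their sum) had a highest library that stood apart from the other 3. Chance flags about 1 in 20 groups of continuous values, a rate that does not hold here, since 6 of the 8 rows had reads in 1 testis library alone, which sets them apart by construction. The library was testis runt b in 5 cases, with 9.61 RPM of miR-N312 (others 1.53 to 2.69 RPM), 2.62 RPM of miR-N133 (others 0.6 to 0.9 RPM), 1.75 RPM of miR-N42, 0.87 RPM of miR-N363 and 0.87 RPM of miR-N93, the last 3 with 0 in the others. It was testis runt a in 2, with 3.59 RPM of miR-N130 and 0.9 RPM of miR-N107, and testis normal a in 1, with 0.6 RPM of miR-N116, each with 0 in the others. Apart from miR-N312 and miR-N130 these values are at most 3 reads.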

How the results depend on the processing

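In the normal brain library alone 24 rows met the rule, 20 of them among the 34, and in that of the runt alone 93 did, including all 34. A minimum of 2 RPM gave 56 rows and one of 10 RPM gave 16, while 1.5 times, 3 times, the highest library of each tissue and scaling gave 38, 25, 28 and 29. Of the 29 rows after scaling, 25 were among the 34. Calls in testis against heart stayed within 1.5 times of 111 in all settings run, from 86 to 105 when a library was left out. For runts against normal hatchlings 1 row passed without scaling, 3 in testis alone, and 0 to 14 when a library was left out, with 5 without the normal heart library and 14 without the runt one. miR-N36 kept its call in testis against heart in 5 of the 10 settings that could test it. No paired analysis was possible because the value columns carry no replicate number. With 1 brain library per size class, and members with as few as 13 reads (miR-N133, runt) in a brain library, small differences between rows were not detectable.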
